A study of Mus musculus with 8 samples.

Results

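Immediate early genes and heat shock genes were followed in single synovial cells of arthritic and healthy mice. The set was named by symbol and held 31 of the 32285 genes in the count matrices, 19 immediate early genes and 12 heat shock genes. The immediate early genes were Fos, Fosb, Jun, Junb, Jund, Egr1, Egr2, Egr3, Ier2, Ier5, Atf3, Klf2, Klf4, Klf6, Nr4a1, Nr4a2, Dusp1, Zfp36 and Btg2. The heat shock genes were Hspa1a, Hspa1b, Hspa8, Hspb1, Hsph1, Hspd1, Hspe1, Hsp90aa1, Dnajb1, Dnaja1, Dnajb4 and Bag3. All 31 passed the filter on low counts in every comparison made over all fibroblasts. No measured value entered the choice of the symbols, although earlier results of these data were known when the set was drawn up.

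Immediate early genes are transcribed within minutes of a stimulus such as a growth factor, a cytokine or mechanical stress, without new protein synthesis. Many encode transcription factors of the AP-1, EGR, KLF and NR4A families, and others, such as Dusp1, Zfp36 and Btg2, encode proteins that end the signal or degrade its transcripts. Heat shock genes encode chaperones that refold damaged proteins, and their induction is driven by the factor HSF1, which binds heat shock elements in their promoters. Both programmes are also switched on by enzymatic dissociation of tissue, so that their levels in dissociated synovium carry the handling of the cells as well as their state in the joint. The share of handling in the levels given here was not tested.

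The cells came from ankle and wrist joints of 17 mice aged 8 to 10 weeks (strain label B6-Tg(TNF)197Gkl). These fell into 5 groups. FAP-sorted animals were 5 arthritic hTNFtg197+ mice, carriers of a human TNF transgene, that had Il23mc for 9 days and no inhibitor, and their cells were sorted as viable CD45- FAP+ Pdpn+. IL-17-inhibited animals were 3 hTNFtg197+ mice with Il23mc for 9 days and anti-mIL-17a, TNF-inhibited animals were 3 with the same genotype and Il23mc plus anti-hTNF, and untreated arthritic animals were 3 with Il23mc alone. Healthy animals were 3 WT mice without treatment, 1 in each of the 3 libraries of viable CD45- cells, where they shared a library with the 3 arthritic animals of 1 condition. Condition and library are therefore the same split among arthritic animals, and the sort is a library of its own. Every mouse was marked by a hashtag antibody, and the text treats mice as replicates.

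The matrices held 10879 to 13105 barcodes per library with 149149135 to 180057537 unique molecular identifiers (UMIs), and the authors' annotation covered 24227 cells in 7 classes. Counts were summed over the 5 fibroblast classes of each animal (lining, Mmp3+, Il6+, Cd200+ and Pi16+), which gave 4508588 to 36786390 UMIs per animal. The fibroblast cells numbered 783 to 2037 per arthritic animal of the unsorted libraries and 413, 541 and 749 in the healthy animals of the IL-17-inhibited, TNF-inhibited and untreated libraries. Fibroblast markers (11 genes, among them Col1a1, Dcn and Pdgfra) summed to 32100 to 53800 CPM (UMI counts scaled to a common library total) in the unsorted arthritic and 33640 to 37060 CPM in the healthy animals. Library pairs shared 7 to 12 annotated barcodes. The class mix differed between arthritic and healthy animals: Mmp3+ cells numbered 292 to 986 per unsorted arthritic animal and 16 to 24 per healthy animal, and Pi16+ cells 1 to 67 and 173 to 331.

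The cells given to the healthy animals stood apart in their hashtags. After each hashtag was scaled across the cells of its library, the annotated hashtag was the highest in 99.0% to 100% of the fibroblasts of every animal. By raw hashtag counts it was the highest in 96.2% to 100% of the cells of arthritic animals, and in 9.93%, 22.7% and 34.8% of the cells of the healthy animals of the IL-17-inhibited, TNF-inhibited and untreated libraries. A UMI of a Y-linked gene was found in 17.7%, 23.1% and 2.94% of those healthy cells, while 67.3%, 65.4% and 88.8% had Xist and no Y-linked UMI, so that the healthy cells of the IL-17-inhibited and TNF-inhibited libraries held both kinds. The comparisons with healthy animals over all fibroblasts are therefore given also for the 41, 123 and 261 healthy cells whose own hashtag had the highest raw count, and for the 340, 416 and 727 healthy cells without a Y-linked UMI. Y-linked UMIs were in 57.8% of cells of untreated animal 2, 81.3% and 86.5% of TNF-inhibited animals 1 and 2 and 75.5% of IL-17-inhibited animal 1. In the other unsorted arthritic animals they were in 2.34% to 4.87%, and the second restriction cannot remove cells of those animals. Arthritic animals thus held both sexes by these UMIs, and the part of sex in the differences was not tested. Inside classes the restrictions could be fitted only where each healthy animal kept at least 10 cells. Both restrictions were added after the data were seen. Which animal the other cells came from was not tested.

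Over all fibroblasts, the immediate early genes were lower and the heat shock genes higher in arthritic than in healthy animals when the animals were compared inside their libraries. With library as a term, 12 immediate early genes fell and 1 (Dusp1) rose in the 9 arthritic animals, and 8 heat shock genes rose and none fell. Of all 14348 genes tested, 20.1% rose and 20.1% fell at an adjusted p under 0.05 (edgeR's quasi-likelihood test with Benjamini-Hochberg adjustment). The median log2 fold change was -0.395 over the 19 immediate early genes and 0.555 over the 12 heat shock genes, against 0.0122 over all genes. Arthritic animals lay below the healthy animal of their own library in 9 of 9 cases for 12 of the 19 immediate early genes and above it in 9 of 9 for 1. For heat shock genes, 8 of 12 lay above in 9 of 9 cases. Of 12612 genes with at least 200 UMIs, 19.9% lay below and 23.2% above in 9 of 9.

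The immediate early counts changed with the choice of healthy cells. With healthy cells of the highest raw hashtag alone, 3 immediate early genes fell (Egr3, Klf4 and Egr2), 1 rose (Dusp1) and the median was -0.244. The 3 that fell were 15.8% of the immediate early genes, near the 12.1% of all genes that fell in that fit. In the same fit 10 heat shock genes rose (83.3%) and none fell, with a median of 0.796, where 13.3% of all genes rose. With healthy cells that had no Y-linked UMI, 13 immediate early genes fell and 1 rose (median -0.437), and 8 heat shock genes rose (median 0.572). There 19.6% of all genes rose and 19% fell. Cells of healthy animals also held fewer UMIs, with animal medians of 13210 to 19170 per cell in unsorted arthritic and 9203 to 10520 in healthy animals, and the part of this in the differences was not tested. Since the counts are relative to all UMIs of an animal's fibroblasts, a lower share of a transcript and a shift of cells between classes cannot be told apart in these sums. Changes inside classes are given after the sums.

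**Figure D1:**
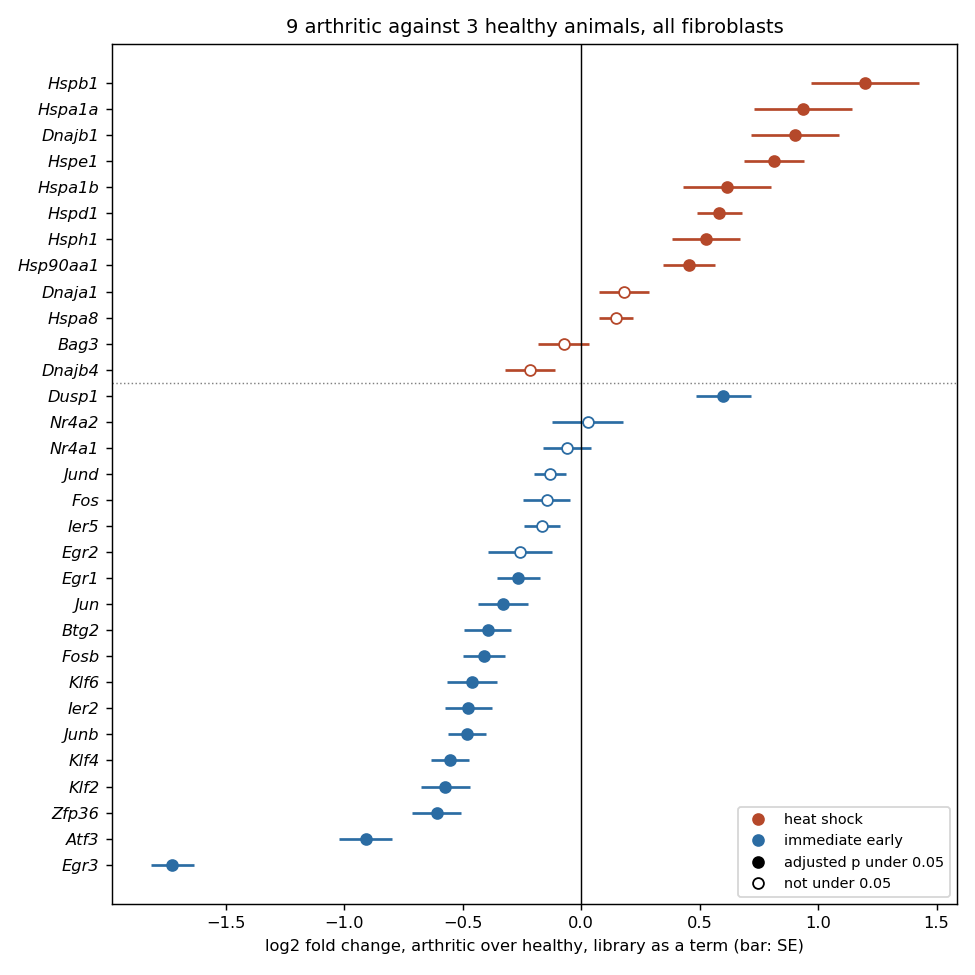
The log2 fold change of each of the 31 genes in 9 arthritic against 3 healthy animals with library as a term, over all fibroblasts (points: edgeR estimates; bars: SE; filled: adjusted p under 0.05). Heat shock genes run between -0.22 and 1.20 and immediate early genes between -1.73 and 0.60, with Egr3 the lowest and Hspb1 the highest.

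Egr3, a zinc finger transcription factor of the early growth response family (chromosome 14, 70077203 to 70082614, plus strand, GRCm38), had the largest difference in size. It stood at 35.4, 35.5 and 34.5 CPM in IL-17-inhibited, 24.4, 22.3 and 32.4 CPM in TNF-inhibited and 31.2, 29.2 and 33.9 CPM in untreated arthritic animals. In the healthy animals of the IL-17-inhibited, TNF-inhibited and untreated libraries, the order kept below, it stood at 115, 95.8 and 95.2 CPM. The arthritic and healthy values did not overlap, and the lowest healthy animal, at 95.2 CPM, was far above the highest arthritic animal, at 35.5 CPM. The log2 fold change was -1.73 ± 0.09 (SE; edgeR adjusted p = 9.52e-08), and -1.49 with healthy cells of the highest raw hashtag alone. Untreated arthritic animals alone differed from the 3 healthy animals by -1.69 ± 0.12 (adjusted p = 9.34e-07). The call held without each animal in turn in both comparisons.

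Atf3, a stress-induced repressor of the ATF/CREB family, stood at 472, 536 and 400 CPM in IL-17-inhibited, 389, 455 and 445 CPM in TNF-inhibited and 355, 452 and 459 CPM in untreated arthritic animals, against 729, 801 and 954 CPM in healthy animals. All 9 arthritic values were below all 3 healthy ones. Atf3 fell by 0.91 on the log2 scale (SE 0.11, adjusted p = 4.31e-05), but with healthy cells of the highest raw hashtag alone the difference was -0.45 (adjusted p = 0.0617). Klf4, a zinc finger transcription factor, had 1227, 1151 and 981 CPM in IL-17-inhibited, 1225, 1242 and 1303 CPM in TNF-inhibited and 1438, 1350 and 1626 CPM in untreated arthritic animals, against 1647, 1923 and 2067 CPM in healthy animals. The highest arthritic value, 1626 CPM, lay just under the lowest healthy one. Klf4 fell by 0.55 (SE 0.08, adjusted p = 1.5e-04), and its call held under both restrictions of the healthy cells.

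Zfp36 encodes tristetraprolin, which binds and destabilizes AU-rich transcripts such as that of TNF. It had 775, 992 and 699 CPM in IL-17-inhibited, 950, 842 and 891 CPM in TNF-inhibited and 948, 1148 and 1019 CPM in untreated arthritic animals, against 1156, 1292 and 1810 CPM in healthy animals. The groups did not overlap, although the highest arthritic animal, at 1148 CPM, came close to the lowest healthy one, at 1156 CPM. Zfp36 fell by 0.61 (SE 0.10, adjusted p = 4.93e-04), and with healthy cells of the highest raw hashtag alone the difference was -0.27 (adjusted p = 0.236). Klf2, a transcription factor that restrains inflammatory genes in endothelium and leukocytes, had 415, 458 and 365 CPM in IL-17-inhibited, 407, 479 and 451 CPM in TNF-inhibited and 361, 511 and 490 CPM in untreated arthritic animals, against 592, 635 and 732 CPM in healthy animals. Klf2 fell by 0.57 (SE 0.10, adjusted p = 7.59e-04), with no overlap of arthritic and healthy animals. Its difference was -0.31 (adjusted p = 0.0838) with healthy cells of the highest raw hashtag alone.

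Among AP-1 subunits, Junb had 1310, 1367 and 1131 CPM in IL-17-inhibited, 1345, 1187 and 1324 CPM in TNF-inhibited and 1248, 1399 and 1456 CPM in untreated arthritic animals, against 1647, 1790 and 2066 CPM in healthy animals. No arthritic animal reached the lowest healthy one. Junb fell by 0.48 (SE 0.08, adjusted p = 4.16e-04), and by 0.295 with healthy cells of the highest raw hashtag alone, where it did not pass (adjusted p = 0.076). Ier2, an early-response nuclear protein, had 211, 218 and 185 CPM in IL-17-inhibited, 289, 310 and 255 CPM in TNF-inhibited and 204, 271 and 263 CPM in untreated arthritic animals, against 303, 341 and 373 CPM in healthy animals. Here 1 TNF-inhibited animal, at 310 CPM, overlapped the healthy range. Ier2 fell by 0.48 (SE 0.10, adjusted p = 0.00208), but with the same restricted healthy cells the difference was -0.24 (adjusted p = 0.158).

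Jun and Fos, the partners of the classical AP-1 dimer, moved less. Jun had 907, 1112 and 940 CPM in IL-17-inhibited, 1071, 1271 and 1036 CPM in TNF-inhibited and 1020, 1419 and 1233 CPM in untreated arthritic animals, against 1182, 1320 and 1722 CPM in healthy animals, and the groups overlapped. Its within-library difference was -0.33 ± 0.11 (adjusted p = 0.0257), and the call was lost without any 1 of the 3 healthy animals. The Jun difference was -0.03 (adjusted p = 0.929) with healthy cells of the highest raw hashtag alone. Fos had 1699, 1700 and 1389 CPM in IL-17-inhibited, 1955, 2377 and 1685 CPM in TNF-inhibited and 2112, 2169 and 2083 CPM in untreated arthritic animals, against 1763, 2090 and 2495 CPM in healthy animals. The Fos values overlapped and the difference of -0.15 ± 0.10 did not pass the test (adjusted p = 0.269). Egr1, the best known EGR factor, had 1086, 1193 and 1005 CPM in IL-17-inhibited, 1272, 1396 and 1307 CPM in TNF-inhibited and 1143, 1499 and 1328 CPM in untreated arthritic animals, against 1242, 1454 and 1835 CPM in healthy animals. Its difference of -0.27 ± 0.09 (adjusted p = 0.0352) lost its call in 7 of 12 fits with 1 animal left out and was 0.06 (adjusted p = 0.799) with healthy cells of the highest raw hashtag alone.

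The other immediate early genes that fell within libraries were Klf6 (-0.46), Fosb (-0.41) and Btg2 (-0.39), and none of the 3 passed the test with healthy cells of the highest raw hashtag alone. Jund, Egr2, Ier5, Nr4a1 and Nr4a2 did not pass, with differences between -0.26 and 0.03. Dusp1 was the exception in direction. It encodes a phosphatase that switches off MAP kinases, and it had 865, 756 and 664 CPM in IL-17-inhibited, 1059, 1120 and 795 CPM in TNF-inhibited and 929, 943 and 1029 CPM in untreated arthritic animals, against 577, 612 and 592 CPM in healthy animals. All 9 arthritic animals were above all 3 healthy ones. Dusp1 rose by 0.60 (SE 0.12, adjusted p = 0.00135), and by 0.86 with healthy cells of the highest raw hashtag alone.

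**Figure D2:**
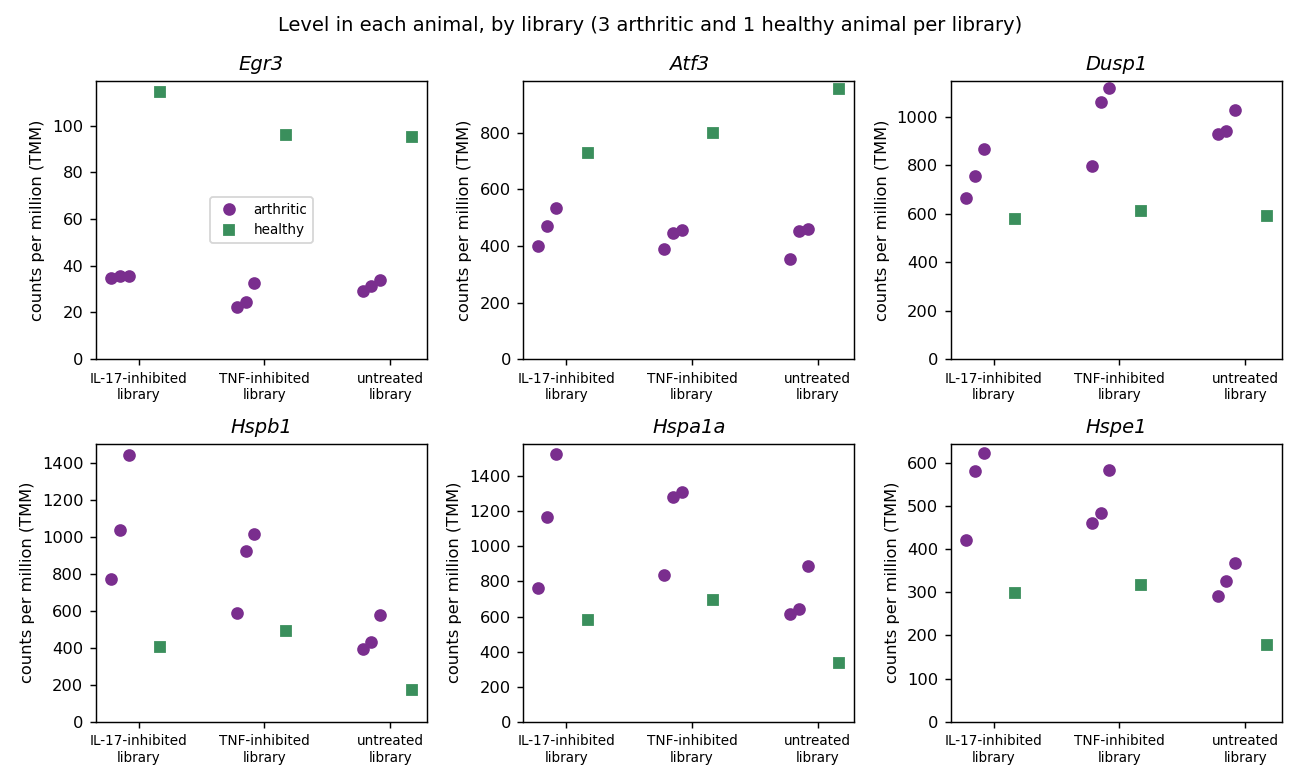
Levels of Egr3, Atf3, Dusp1, Hspb1, Hspa1a and Hspe1 in TMM-scaled CPM, 1 point per animal, by library, with arthritic animals as circles and the healthy animal of the library as a square. Egr3 and Atf3 lie lower and Dusp1, Hspb1, Hspa1a and Hspe1 higher in the 3 arthritic animals than in the healthy animal of each library.

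The promoters shown are those of some of the heat shock genes that rose, picked among those that hold the core heat shock element (in capitals). Those of 2 immediate early genes that moved in opposite directions are shown as well. They come from RefSeq (GRCm38.p6), span 250 bases before to 50 after the start, and are read 5′ to 3′ on the gene's strand. Hspa1a and Hspa1b encode near-identical inducible HSP70 chaperones and lie side by side on chromosome 17 (minus strand), with windows at chr17:34972107-34972406 and chr17:34959189-34959488. The small chaperone gene Hspb1 has its window at chr5:135887669-135887968 (plus strand), and Hspe1, which encodes the mitochondrial co-chaperonin HSP10, at chr1:55087898-55088197 (plus strand). Hspe1 shares its promoter region with Hspd1, its HSP60 partner, which is transcribed the other way.
Hspa1a: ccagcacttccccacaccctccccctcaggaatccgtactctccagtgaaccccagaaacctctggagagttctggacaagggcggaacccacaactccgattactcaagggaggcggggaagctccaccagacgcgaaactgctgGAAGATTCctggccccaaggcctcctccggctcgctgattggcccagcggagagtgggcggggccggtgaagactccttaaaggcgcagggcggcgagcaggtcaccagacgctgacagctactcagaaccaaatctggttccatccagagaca
Hspa1b: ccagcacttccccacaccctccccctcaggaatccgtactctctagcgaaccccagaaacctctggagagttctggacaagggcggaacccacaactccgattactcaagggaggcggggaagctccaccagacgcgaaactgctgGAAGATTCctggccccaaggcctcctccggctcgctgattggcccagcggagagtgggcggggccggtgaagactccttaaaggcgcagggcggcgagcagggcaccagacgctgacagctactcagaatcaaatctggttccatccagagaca
Hspb1: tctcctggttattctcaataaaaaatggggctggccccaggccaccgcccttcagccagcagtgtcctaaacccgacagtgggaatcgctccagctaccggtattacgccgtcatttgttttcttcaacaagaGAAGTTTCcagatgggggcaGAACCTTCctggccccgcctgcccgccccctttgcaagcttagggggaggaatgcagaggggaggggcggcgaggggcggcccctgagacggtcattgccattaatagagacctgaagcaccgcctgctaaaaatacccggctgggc
Hspe1: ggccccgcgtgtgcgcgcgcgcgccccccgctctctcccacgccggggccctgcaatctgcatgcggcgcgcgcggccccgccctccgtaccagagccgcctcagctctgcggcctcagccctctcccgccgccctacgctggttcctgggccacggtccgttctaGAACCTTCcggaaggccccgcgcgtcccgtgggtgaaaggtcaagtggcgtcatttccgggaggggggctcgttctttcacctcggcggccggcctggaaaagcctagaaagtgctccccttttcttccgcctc
The core searched was GAANNTTC, on both strands. Its first base lay at -104 in both Hspa1a and Hspa1b, at -117 and -97 in Hspb1 and at -84 in Hspe1, counted from the start. The core was found in 8 of 10 heat shock genes with a promoter entry (Hspa1a, Hspa1b, Hspb1, Hsph1, Hspd1, Hspe1, Dnaja1 and Bag3), in 1 of 16 immediate early genes (Jun) and in 9.04% of 27025 genes. It was not found in Dnajb1, which rose, or in Dnajb4, while Dnaja1 and Bag3 hold it and did not pass the test over all fibroblasts. The longer form, the core followed by any pair of bases and GAA, was in Hspd1, Hspe1 and Hsph1 and in 0.66% of genes. The 2 HSP70 windows were identical at 296 of 300 positions. The last 500 bases of their transcripts, where reads of 3′ libraries fall, shared none of 411 words of 90 bases, so that reads of the 2 genes can be separated there. Egr1, Egr3, Ier2, Hspa8 and Hsp90aa1 have no window here.

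Zfp36, which fell, holds a CArG box (the binding motif of serum response factor, CCWWWWWWGG) with its first base at -58 in the window chr7:28379179-28379478 (minus strand). Dusp1, which rose, holds a cAMP response element (TGACGTCA) at -143 in the window chr17:26508423-26508722 (minus strand). Both motifs are in capitals.
Zfp36: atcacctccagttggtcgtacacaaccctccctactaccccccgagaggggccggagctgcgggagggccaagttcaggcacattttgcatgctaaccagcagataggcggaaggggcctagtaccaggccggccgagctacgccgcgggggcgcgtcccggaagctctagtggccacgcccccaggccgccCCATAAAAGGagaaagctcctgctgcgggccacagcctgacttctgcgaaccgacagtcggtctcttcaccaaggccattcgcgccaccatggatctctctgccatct
Dusp1: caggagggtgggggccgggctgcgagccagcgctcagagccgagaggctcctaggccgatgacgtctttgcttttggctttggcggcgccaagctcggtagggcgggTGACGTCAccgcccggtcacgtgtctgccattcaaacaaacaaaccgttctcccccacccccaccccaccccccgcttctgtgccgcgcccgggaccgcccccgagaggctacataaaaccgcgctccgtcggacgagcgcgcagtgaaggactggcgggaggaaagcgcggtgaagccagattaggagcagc
A CArG box was found in Egr2 and Zfp36 and in 1.81% of genes, and TGACGTCA in Btg2 and Dusp1 and in 2.03% of genes. The AP-1 motif TGANTCA was in Bag3 and in 8.97% of genes. These matches describe letters in the windows and no binding was measured.

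For the 8 heat shock genes that rose, the 9 arthritic animals lay above the healthy animal of their own library. Fitted in the TNF-inhibited or the IL-17-inhibited library alone, with 1 healthy animal each, none of the 8 passed, and Hspb1 differed by 0.77 (adjusted p = 0.223) and 1.44 (adjusted p = 0.0508). Hspb1 encodes a small chaperone that also stabilizes actin. It had 775, 1039 and 1442 CPM in IL-17-inhibited, 1018, 927 and 587 CPM in TNF-inhibited and 392, 579 and 431 CPM in untreated arthritic animals, against 406, 492 and 171 CPM in the healthy animals of the same 3 libraries. Every arthritic animal was above the healthy animal of its library, although the untreated arthritic animals overlapped the healthy animals of the other libraries. Hspb1 rose by 1.20 (SE 0.23, adjusted p = 0.00111). Hspa1a, the HSP70 gene, had 761, 1169 and 1526 CPM in IL-17-inhibited, 1313, 1283 and 839 CPM in TNF-inhibited and 641, 889 and 614 CPM in untreated arthritic animals, against 578, 696 and 333 CPM in the healthy animals of the same libraries. Hspa1a rose by 0.93 (SE 0.21, adjusted p = 0.00319). Hspa1b had 552, 784 and 1037 CPM in IL-17-inhibited, 876, 794 and 618 CPM in TNF-inhibited and 448, 641 and 399 CPM in untreated arthritic animals, against 486, 531 and 323 CPM in healthy animals. It rose by 0.61 (SE 0.19, adjusted p = 0.0184), a call lost without any 1 of the healthy animals.

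The mitochondrial chaperonin pair moved together. Hspe1 had 420, 581 and 621 CPM in IL-17-inhibited, 583, 460 and 484 CPM in TNF-inhibited and 292, 367 and 326 CPM in untreated arthritic animals, against 297, 316 and 177 CPM in the healthy animals of the same libraries. Hspd1 had 242, 300 and 335 CPM in IL-17-inhibited, 280, 259 and 270 CPM in TNF-inhibited and 205, 238 and 211 CPM in untreated arthritic animals, against 187, 194 and 140 CPM in healthy animals. For Hspd1 all 9 arthritic animals lay above all 3 healthy ones, while for Hspe1 the lowest arthritic animal, at 292 CPM, lay among the healthy values. Hspe1 rose by 0.81 (SE 0.13, adjusted p = 2.59e-04) and Hspd1 by 0.58 (SE 0.09, adjusted p = 3.7e-04). The 2 genes overlap at their starts and are read in opposite directions, while reads of 3′ libraries fall toward the other end of transcripts. Any reads in the overlap can be told apart only by strand, which 3′ libraries of this kind keep. The sources used here do not say how strand was used in counting.

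Dnajb1, the HSP40 co-chaperone that activates HSP70, had 315, 381 and 485 CPM in IL-17-inhibited, 534, 461 and 299 CPM in TNF-inhibited and 240, 371 and 316 CPM in untreated arthritic animals, against 199, 241 and 167 CPM in the healthy animals of the same libraries. It rose by 0.90 (SE 0.19, adjusted p = 0.00186), with 1 untreated arthritic animal (240 CPM) at the level of the highest healthy one. Hsp90aa1, the inducible HSP90, had 1596, 1962 and 2385 CPM in IL-17-inhibited, 1899, 2013 and 1837 CPM in TNF-inhibited and 1271, 1533 and 1234 CPM in untreated arthritic animals, against 1396, 1501 and 944 CPM in healthy animals. The groups overlapped, and the within-library rise was 0.46 (SE 0.11, adjusted p = 0.00582). Hspa8, the constitutive HSC70, had 2988, 3015 and 3267 CPM in IL-17-inhibited, 3447, 3246 and 3631 CPM in TNF-inhibited and 2658, 3015 and 2702 CPM in untreated arthritic animals, against 2989, 3105 and 2348 CPM in healthy animals. Its difference of 0.15 ± 0.07 did not pass the test (adjusted p = 0.12). Hsph1, an HSP110 exchange factor, rose by 0.53 (SE 0.14, adjusted p = 0.0107). Dnaja1, Dnajb4 and Bag3, co-chaperones of HSP70, did not pass, with differences of 0.18, -0.22 and -0.07. With healthy cells of the highest raw hashtag alone Dnaja1 and Hspa8 also rose, by 0.43 and 0.39.

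Untreated arthritic animals set against all 3 healthy animals without a library term gave fewer calls. Of the 31 genes, 1 rose (Dusp1, 0.71 ± 0.13, adjusted p = 0.00127) and 7 fell, against 14.4% of all genes that rose and 14.3% that fell. The 7 were Egr3, Atf3 (-0.96), Klf2 (-0.52), Klf6 (-0.49), Ier2 (-0.45), Junb (-0.42) and Klf4 (-0.35). No heat shock gene passed the edgeR test, 3 (Dnajb1, Dnajb4 and Hspd1) had an unadjusted p under 0.05, and DESeq2 called 2, Dnajb1 and Dnajb4. The shares of all genes for the unadjusted and the DESeq2 counts are not given here. The median was -0.249 over immediate early genes and 0.191 over heat shock genes, against 0.00759 over all genes. Atf3, Dusp1 and Egr3 kept their calls without each animal in turn, while Ier2, Junb, Klf2 and Klf6 lost theirs without untreated animal 1 and without the healthy animal of the untreated library, and Klf4 in 4 of 6 such fits. With library as a term, 4 genes rose and 7 fell: Hspb1 (1.46, adjusted p = 0.0323), Hspe1 (0.91, adjusted p = 0.0256) and Hspd1 (0.65, adjusted p = 0.029) joined those that rose, Zfp36 (-0.79, adjusted p = 0.0149) those that fell, and Klf4 no longer passed (adjusted p = 0.0507). That fit set the untreated animals against the 1 healthy animal of their library, so that healthy animals gave it no spread. Keeping only that healthy animal is therefore no second check. It gave 1.47 for Hspb1, 0.92 for Hspe1 and 0.66 for Hspd1. With healthy cells of the highest raw hashtag alone, 4 of the 31 passed, 3 of them higher (Dusp1, Hsph1 and Dnajb1) and 1 lower (Egr3). With healthy cells without a Y-linked UMI, 2 rose and 9 fell. The shares of all genes that rose or fell are not given here for the fit with library as a term or for either restriction. These counts of members therefore cannot be set against all genes.

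The healthy animals themselves differed by library. Heat shock levels were higher in the healthy animal of the TNF-inhibited library than in that of the untreated library for 11 of 12 genes (median log2 ratio 0.611, highest 1.52), and in that of the IL-17-inhibited library for 11 of 12 (median 0.491, highest 1.25). Immediate early levels were lower for 17 of 19 (median -0.256) and 18 of 19 genes (median -0.388). These are ratios between single animals and carry no test. They use all annotated healthy cells, also those whose own hashtag was not the highest by raw count. Cells with their own hashtag highest made up 34.8% in the untreated, 22.7% in the TNF-inhibited and 9.93% in the IL-17-inhibited library. Whether cells of other animals of a library entered these levels was not tested. Treatment and library cannot be told apart in the comparisons of treated with untreated animals. The healthy animals are the only measure of the library that the design holds. The directions given below with library as a term rest on the same healthy cells and carry the same limit.

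TNF inhibition against no inhibitor called none of the 31 genes, while 2.53% of all genes rose and 3.02% fell. At an unadjusted p under 0.05, a looser threshold than that of these shares, 10 of the 31 passed. The share of all genes at that threshold is not given here, so the count cannot be set against it. DESeq2, which also called more of all genes, called 2 members, Hspe1 (0.62, adjusted p = 0.0343) and Nr4a2 (-0.66, adjusted p = 0.0256). Over the heat shock genes the median was 0.437 with 11 of 12 positive, and over the immediate early genes it was -0.108 with 15 of 19 negative. Hspb1 had a difference of 0.84 ± 0.34 (adjusted p = 0.149), Hspa1a 0.66 ± 0.29 (adjusted p = 0.18) and Hsp90aa1 0.49 ± 0.17 (adjusted p = 0.106). With library as a term the direction turned: the heat shock median was -0.187 with 12 of 12 negative, Hspb1 differed by -0.69 (adjusted p = 0.926), Hspa1a by -0.41 and Hsp90aa1 by -0.18, and the immediate early median was 0.149 with 15 of 19 positive. No member and no other gene passed in that fit. Before that term, all TNF-inhibited animals were above all untreated ones for Hspb1 and Hsp90aa1, and for Hspa1a 1 TNF-inhibited animal, at 839 CPM, lay below the highest untreated one.

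IL-17 inhibition against no inhibitor raised 2 and lowered 4 of the 31 genes, against 3.8% of all genes that rose and 4.65% that fell. Hspb1 rose by 1.22 (SE 0.34, adjusted p = 0.0427) and Hspe1 by 0.72 (SE 0.20, adjusted p = 0.0441). Fosb, an AP-1 subunit, had 777, 786 and 712 CPM in IL-17-inhibited animals, against 1305, 1189 and 1314 CPM in untreated arthritic animals. The 2 groups did not overlap, and Fosb fell by 0.74 (SE 0.14, adjusted p = 0.00825), without each animal in turn as well. The orphan nuclear receptors Nr4a1 and Nr4a2 fell by 0.57 (adjusted p = 0.0308) and 0.72 (adjusted p = 0.0485), and Klf4 by 0.39 (adjusted p = 0.049). Calls of Hspb1, Hspe1 and Nr4a1 were lost in 5 of 6, and those of Klf4 and Nr4a2 in all 6, of the fits with 1 animal left out. With library as a term, which sets each treated group against the healthy animal of its library, Hspb1 and Hspe1 differed by -0.04 and -0.04, Fosb by -0.23 (adjusted p = 0.853), and no member and no other gene passed. With the restricted healthy cells in that fit no member passed either for TNF or IL-17 inhibition. Muscle markers (8 genes) moved with these comparisons, at 61.0 to 97.5 CPM in IL-17-inhibited and 91.9 to 132 CPM in TNF-inhibited animals, against 216 to 305 CPM in untreated arthritic animals. The healthy animals, which had no inhibitor, followed the same order by library, with 89.4, 134 and 313 CPM. The part of these markers was not tested.

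IL-17-inhibited animals set against TNF-inhibited animals differed in 2 of the 31 genes, 1 in each direction, where 4.54% of all genes rose and 3.05% fell. Egr3 was higher by 0.45 (SE 0.12, adjusted p = 0.0404), and its values, 35.4, 35.5 and 34.5 CPM in IL-17-inhibited against 24.4, 22.3 and 32.4 CPM in TNF-inhibited animals, did not overlap. Ier2 was lower by 0.46 on the log2 scale (SE 0.12, adjusted p = 0.0402), also without overlap. Both calls were lost in 5 of 6 fits with 1 animal left out. No heat shock gene passed the edgeR test, and their differences lay between -0.14 and 0.38.

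**Figure D3:**
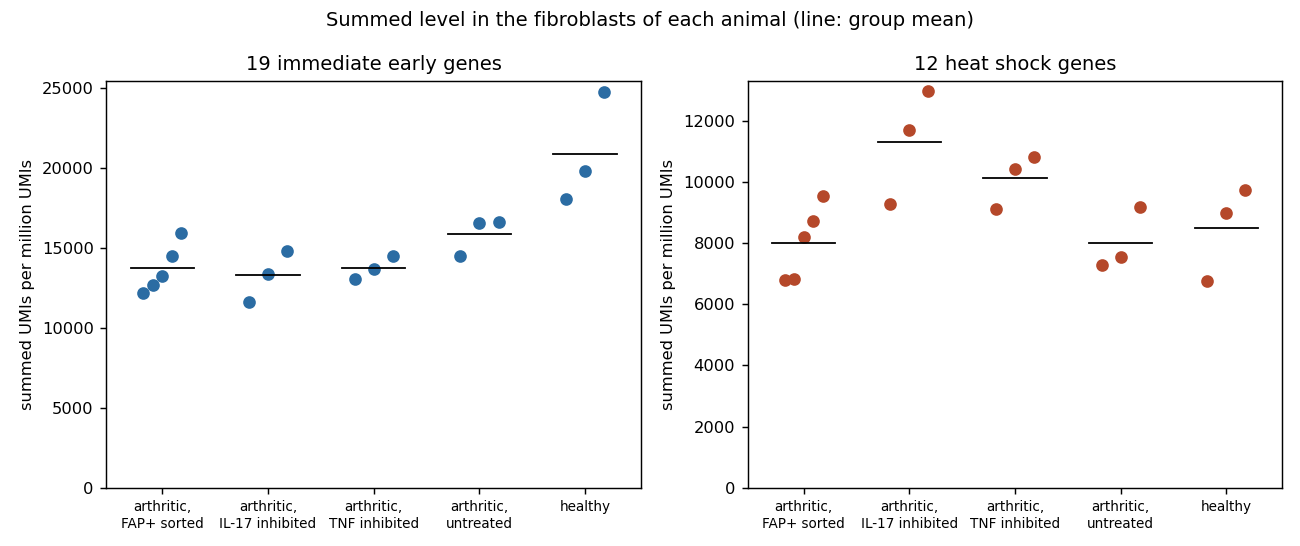
Summed CPM (plain totals) of the 19 immediate early genes (left) and of the 12 heat shock genes (right) in the fibroblasts of each animal, by group (line: group mean). Immediate early sums were 11610 to 16590 in the arthritic and 18080 to 24770 in the healthy animals. With TMM scaling they were 11540 to 16910 and 15870 to 21060, so that the gap closed. With plain totals heat shock sums were highest in 1 IL-17-inhibited animal at 12990.

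FAP-sorted animals were set against untreated arthritic animals of the unsorted library, so sort and library cannot be told apart, and this comparison was scaled over its own 8 animals. Of the 31 genes 2 rose and 6 fell, where 21.3% of all genes rose and 21.5% fell. Zfp36 had 545, 696, 621, 666 and 817 CPM in FAP-sorted animals, against 948, 1148 and 1019 CPM in untreated arthritic animals, and fell by 0.66 (SE 0.12, adjusted p = 0.00168) with no overlap. Egr3 had 21.8, 17.5, 20.3, 17.9 and 26.0 CPM, against 31.2, 29.2 and 33.9 CPM in untreated arthritic animals, and fell by 0.63 (adjusted p = 0.00228). Fos, with 1311, 1512, 1646, 1484 and 1977 CPM in FAP-sorted animals against 2112, 2169 and 2083 CPM in untreated ones, fell by 0.44 (adjusted p = 0.01). Here too no values overlapped.

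Dusp1, Junb and Dnajb4 also fell in FAP-sorted animals, by 0.33, 0.35 and 0.26, while Dnajb1 and Jund rose, by 0.60 (adjusted p = 0.00663) and 0.24 (adjusted p = 0.0214). Dnajb1 had 395, 457, 492, 473 and 559 CPM in FAP-sorted animals, against 240, 371 and 316 CPM in untreated arthritic animals. All 5 FAP-sorted animals were above all 3 untreated ones. Calls of Dnajb1, Dusp1, Egr3, Fos and Zfp36 held without each animal in turn, while Dnajb4 lost its call in 6, Junb in 4 and Jund in 2 of 8 fits. The HSP70 genes did not pass, with differences of 0.14 for Hspa1a and -0.51 for Hspa1b. The median was -0.0477 over immediate early genes and 0.00537 over heat shock genes, against -0.00518 over all genes. Mitochondrial reads were more frequent in FAP-sorted cells, with animal medians of 2.98% to 3.35%, against 2.29% to 2.36% in untreated arthritic animals, and their part was not tested. Markers of other cell types moved with the sort as well: muscle markers summed to 2.77 to 4.11 CPM in FAP-sorted and 216 to 305 CPM in untreated arthritic animals, neutrophil markers (5 genes) to 105 to 136 and 43.7 to 54.6 CPM, and osteoblast markers (7 genes) to 4820 to 9773 and 2615 to 2982 CPM. Their part in the differences of the 31 genes was not tested.

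Inside fibroblast classes the arthritic and healthy animals were compared in the same way, with library as a term. Lining fibroblasts, which face the joint cavity, had 48 to 229 cells per arthritic and 23 to 49 per healthy animal. In them 15 of the 31 genes rose and 1 fell, where 9.55% of all genes rose and 9.14% fell. The 15 were 10 heat shock genes, led by Hspa1b (1.67 ± 0.33, adjusted p = 0.00202), Hsph1 (1.56 ± 0.20, adjusted p = 5.31e-05) and Hspa1a (1.56 ± 0.29, adjusted p = 0.00145), and the immediate early genes Dusp1, Nr4a2, Nr4a1, Fos and Jund. Zfp36 fell by 0.51 (adjusted p = 0.0208). With RLE size factors 14 rose and 1 fell. With healthy cells of the highest raw hashtag alone (13 to 28 per animal), 9 rose, 7 of them heat shock genes, and Zfp36 fell, where 7.97% of all genes rose and 7.54% fell. With healthy cells that had no Y-linked UMI (19 to 46 per animal), 14 rose, 11 of them heat shock genes, and Zfp36 fell. Of all genes 8.46% rose and 8.15% fell in that fit.

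In Il6+ fibroblasts, with 320 to 1028 cells per arthritic and 152 to 287 per healthy animal, 6 genes rose and 3 fell, where 6.83% of all genes rose and 6.03% fell. The 6 were heat shock genes (Hspb1, Hspa1a, Hspa1b, Hspe1, Dnajb1 and Hspd1), with Hspb1 at 1.39 ± 0.26 (adjusted p = 0.00286). The 3 were Egr3 (-1.73 ± 0.11, adjusted p = 3.08e-07), Nr4a2 (-0.60) and Klf6 (-0.41). With RLE size factors Fosb also fell (-0.30, adjusted p = 0.0437). With healthy cells that had no Y-linked UMI, Hspb1, Hspa1a, Hspe1 and Hspd1 rose and Egr3, Nr4a2, Klf6 and Fosb (-0.42, adjusted p = 0.00988) fell. Of all genes 6.25% rose and 5.45% fell in that fit. In Cd200+ fibroblasts 1 gene rose (Dusp1) and 3 fell (Egr3, Atf3 and Klf2), where 3.94% of all genes rose and 3.23% fell. In Pi16+ fibroblasts only Egr3 passed (-1.47 ± 0.30, adjusted p = 0.0184), where 1.23% of all genes rose and 0.84% fell, and animals with fewer than 10 such cells were left out of that fit. These were the TNF-inhibited animals, with 6, 1 and 2 such cells, so the arthritic animals of that fit were untreated or IL-17-inhibited. Egr3 kept its call in Pi16+ fibroblasts with both restrictions of the healthy cells, and in Cd200+ fibroblasts Atf3 lost its call without Y-linked cells. The highest raw hashtag left too few healthy cells for fits in Il6+ and Cd200+ fibroblasts, and neither restriction left enough in Mmp3+ fibroblasts.

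In Mmp3+ fibroblasts 16 genes rose and 1 fell, where 5.03% of all genes rose and 1.86% fell, but the healthy animals had only 16, 17 and 24 such cells. With RLE size factors 8 rose and 1 fell, and the median over all genes was 0.145 with TMM and 0.025 with RLE scaling. The rising genes were 10 heat shock and 6 immediate early genes, with Hspe1 at 1.41 ± 0.25 (adjusted p = 0.00226), Hspa8 at 0.82 ± 0.13 (adjusted p = 0.00106) and Ier5 at 0.84 ± 0.15 (adjusted p = 0.00287). Egr3 fell by 1.15 (adjusted p = 0.041). Of the 12 immediate early genes that fell over all fibroblasts, Egr3, Atf3, Klf2, Klf6 and Zfp36 fell in 1 or more classes at the same threshold, and Jun, Junb, Egr1, Ier2, Klf4 and Btg2 in none. Fosb passed in Il6+ fibroblasts only with RLE scaling or without Y-linked healthy cells. Zfp36 fell in lining and rose in Mmp3+ fibroblasts (0.65, adjusted p = 0.0352). Of the 8 heat shock genes that rose over all fibroblasts, each rose in 1 or more classes.

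**Figure D4:**
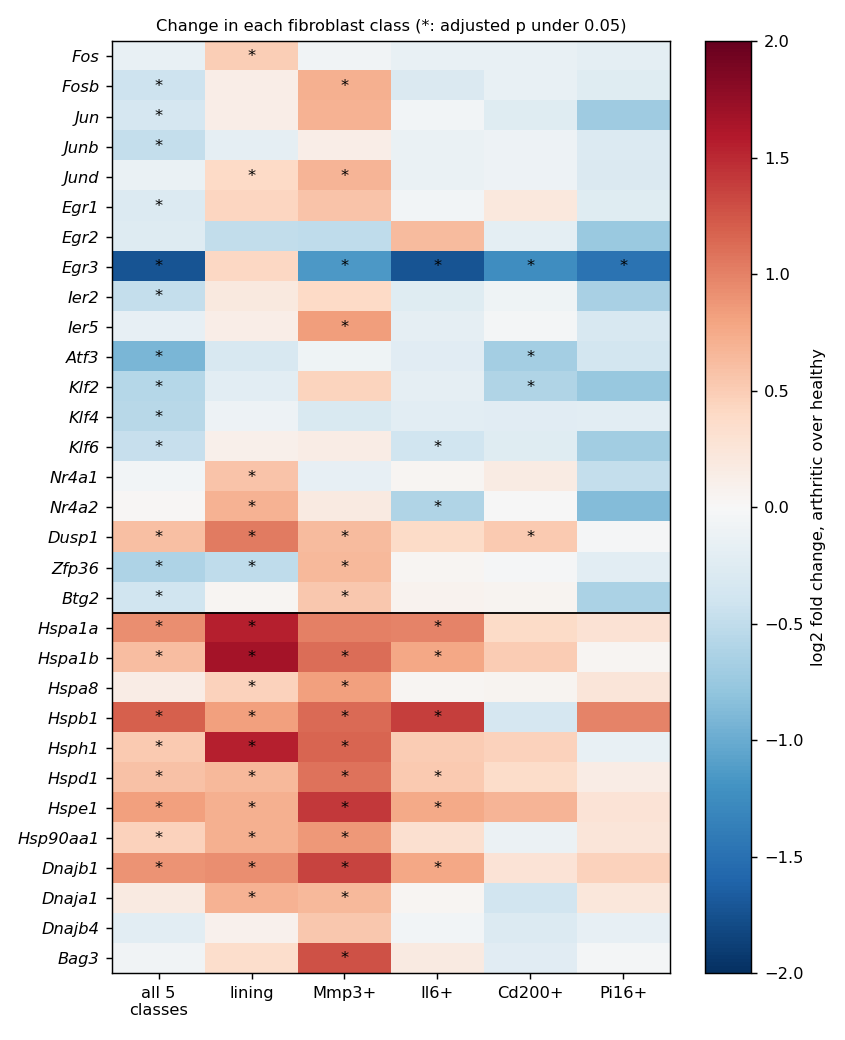
Colours give the log2 fold change, arthritic over healthy with library as a term, of each gene over all fibroblasts and in each class (asterisk: adjusted p under 0.05). The Pi16+ column holds no TNF-inhibited animal. Egr3 is between -1.15 and -1.73 in 4 classes and 0.41 in lining fibroblasts, and heat shock genes (lower block) are mostly positive in lining, Mmp3+ and Il6+ fibroblasts.

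Egr3 differed between classes in its response. In Il6+ fibroblasts it had 35.2, 42.1 and 40.2 CPM (plain totals) in IL-17-inhibited, 23.3, 28.0 and 34.6 in TNF-inhibited and 33.8, 35.8 and 37.0 in untreated arthritic animals, against 127, 115 and 126 CPM in healthy animals. In lining fibroblasts it had 8.25 to 30.0 CPM in the 9 arthritic animals and 24.0, 8.29 and 17.2 CPM in healthy animals, on 6 to 17 UMIs per healthy animal. The Il6+ groups stood far apart and the lining groups overlapped. The lining difference was 0.41 (adjusted p = 0.573), and the lining response minus the Il6+ response was 2.02 ± 0.41 (edgeR with animal as a block, adjusted p = 0.00721).

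The test of lining against Il6+ responses called 3 of the 31 genes higher and 1 lower, where 2.94% of all genes were called higher and 2.8% lower. Besides Egr3 these were Nr4a2 (1.26 ± 0.25, adjusted p = 0.00563), Hsph1 (1.10 ± 0.28, adjusted p = 0.028) and Egr2 (-1.13 ± 0.32, adjusted p = 0.0466). Hsph1 had 72.6 to 169 CPM in lining fibroblasts of arthritic animals and 41.4 to 49.7 in those of healthy animals, with no overlap, and 178 to 357 and 176 to 232 CPM in Il6+ fibroblasts, with overlap. The test of Mmp3+ against Il6+ responses called 5 higher and 0 lower, where 2.46% of all genes were called higher and 0.48% lower. The 5 were Ier5 (1.05), Hspa8 (0.82), Jund (0.85), Bag3 (1.10) and Fosb (1.01), and 2 passed with RLE size factors. The test of Cd200+ against Il6+ responses called none by edgeR, where 0.426% of all genes were called higher and 0.246% lower. At an unadjusted p under 0.05, 11 of the 31 passed, and the share of all genes at that threshold is not given here. With healthy cells that had no Y-linked UMI, the lining test called Egr3 (2.41), Nr4a2 (1.45), Hsph1 (1.24), Dnaja1 (0.82) and Hspa8 (0.51) higher. It called none of the 31 lower, while 2.55% of all genes were called higher and 1.96% lower. Egr2 did not pass (adjusted p = 0.129), and the Cd200+ test again called none by edgeR. These tests were added after the data were seen.

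Levels by class, in summed CPM over 17 animals (14 with Pi16+ cells), are given without a test, since the classes were made from these cells. The immediate early sum averaged 20770 ± 4047 (SD) in Cd200+, 20420 ± 4456 in Pi16+, 16940 ± 3111 in Il6+, 13110 ± 2121 in Mmp3+ and 12060 ± 1388 in lining fibroblasts. The heat shock sum averaged 9583 ± 1712 in Il6+, 9238 ± 2547 in Mmp3+, 8647 ± 1744 in Pi16+, 8056 ± 1557 in Cd200+ and 6094 ± 1507 in lining fibroblasts. Lining fibroblasts were the lowest of the fibroblast classes for the heat shock sum in 15 and for the immediate early sum in 13 of 17 animals. The first 2 and the last 2 classes of the immediate early order, and the first 4 of the heat shock order, were closer than their SDs.

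Single genes had their own classes. Nr4a2 was highest in Cd200+ fibroblasts in 17 of 17 animals, at 734 ± 237 CPM against 286 ± 76.9 in Mmp3+ and 231 ± 75.6 in Il6+ fibroblasts. Nr4a1 was highest there in 16, and Fosb, Egr3 and Btg2 in 15 of 17 animals. Atf3 was highest in Pi16+ fibroblasts in 13 animals, although 3 of the 17 had too few of these cells to enter. Among heat shock genes, Hspa1a was highest in Mmp3+ fibroblasts (1068 ± 449 CPM) and Hspa8 in Il6+ fibroblasts (3610 ± 411 CPM), each in 15 of 17 animals. Jun was lowest in lining fibroblasts in 16 of 17 animals, at 673 ± 190 CPM.

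Within single animals and classes, genes of the same programme correlated more from cell to cell than mixed pairs did, by the median over pairs. In 54 blocks of 1 animal and 1 class with at least 100 cells (20518 cells in all), the median correlation of log-scaled counts was 0.310 over the 66 pairs of heat shock genes, 0.217 over the 171 pairs of immediate early genes and 0.0775 over the 228 mixed pairs. Both within-programme medians were above the mixed one in 54 of 54 blocks. The highest pairs were Hspa1a with Hspa1b (0.735), Fos with Jun (0.670), Fos with Egr1 (0.658) and Jun with Egr1 (0.606). Single pairs departed from the medians. The highest mixed pair, Jun with Hspa1a, had 0.320, and the lowest of all pairs, the immediate early genes Fos and Ier5, had -0.244. These are correlations over cells of the same library, which share depth and handling, and they carry no p.

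The authors' deposited stress score, the gene list of which is not given, followed the same genes. Over 24227 annotated cells and 9861 genes detected in at least 5% of them, Egr1 had the highest correlation with the score (r = 0.692), followed by Fos (0.664), Jun (0.606), Zfp36 (0.602) and Atf3 (0.568). The first 11 ranks were all members, 23 members were among the first 50 genes, and 21 members and 7 other genes reached 0.3. The members may be part of the score, so these values only describe it. Irf1 (0.433), Ppp1r15a (0.414) and Id3 (0.396) were the highest of the others. Egr3 (0.0443), Ier5 (0.0151) and Nr4a2 (-0.0803) were nearly unrelated to it over these pooled cells. The correlations take the cells of all libraries, animals and classes together, so that differences between these enter the values. Mean scores were 0.164 to 0.404 in FAP-sorted animals, 0.712 to 0.904 in unsorted arthritic animals and 0.777 to 0.934 in healthy animals, so that the FAP-sorted animals stood apart from all others, while their immediate early and heat shock sums (12180 to 15950 and 6805 to 9527 CPM) lay within or near the range of the unsorted arthritic animals.

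**Figure D5:**
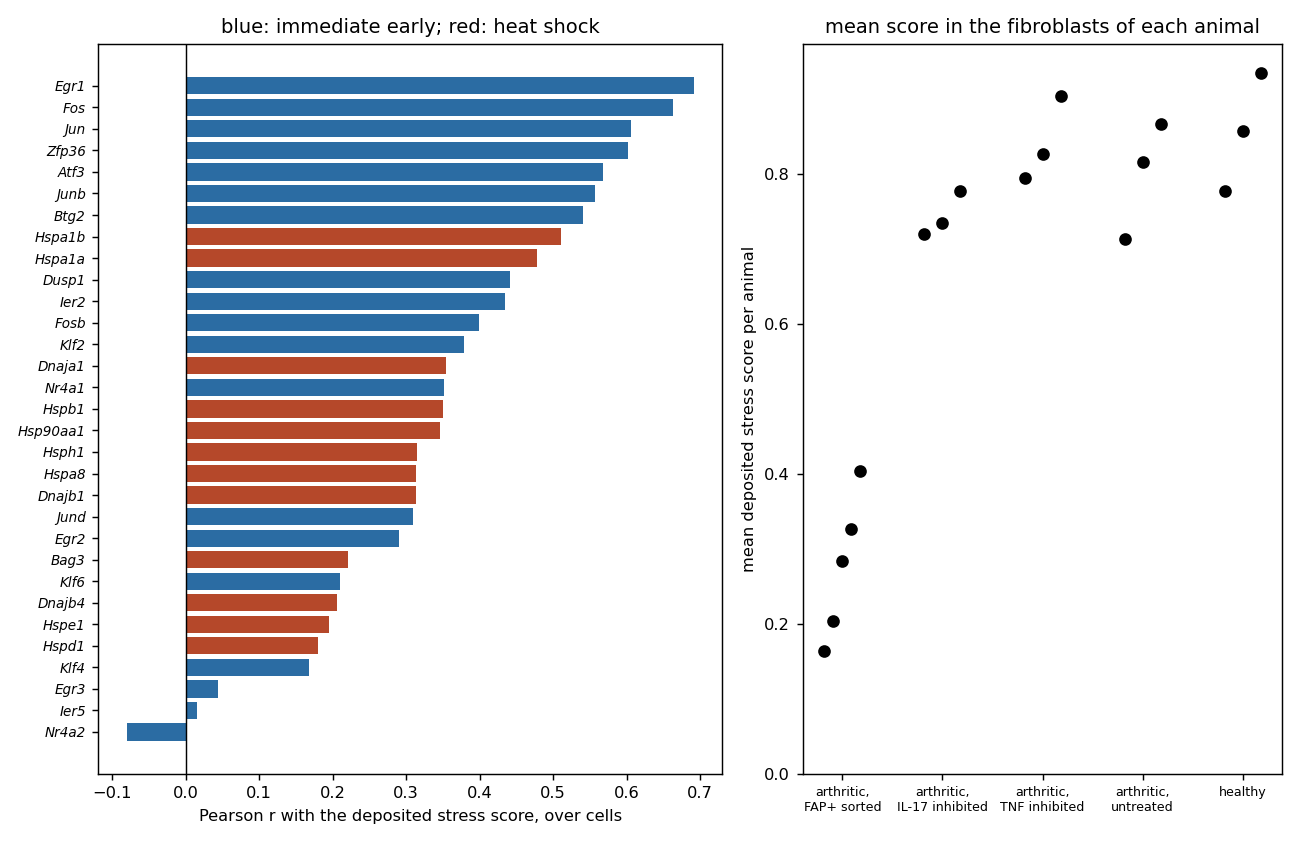
Left, Pearson correlation of each gene's expression with the deposited stress score over 24227 cells (blue: immediate early; red: heat shock). Right, mean deposited score in the fibroblasts of each animal by group, where the 5 FAP-sorted animals (0.164 to 0.404) lie below all others (0.712 to 0.934).

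Other genes of the 2 pathways were counted from fixed lists. Of 39 other immediate early genes tested within libraries, 9 rose (23.1%) and 21 fell (53.8%) in arthritic animals, where 20.1% of all genes rose and 20.1% fell, among them the MAP kinase phosphatase gene Dusp6 (1.73 ± 0.14) and the kinase gene Sgk1 (1.16 ± 0.12), which rose, and Maff (-1.35 ± 0.13) and Ppp1r15a (-0.79 ± 0.07), which fell. Of 38 other heat shock and chaperone genes, 10 rose (26.3%) and 2 fell (5.26%), with polyubiquitin Ubb at 0.58 ± 0.09 and Dnajb6 at 0.50 ± 0.08. Of 20 genes of the endoplasmic reticulum stress response, 9 rose (45%) and 3 fell (15%). The co-chaperone gene Sdf2l1 rose by 1.40 and the disulfide isomerase gene Pdia6 by 0.92, while Ddit3, which encodes the factor CHOP, fell by 0.79. With healthy cells of the highest raw hashtag alone the counts were 9 and 12 for the immediate early, 12 and 3 for the chaperone and 7 and 2 for the endoplasmic reticulum list, where 13.3% of all genes rose and 12.1% fell. In FAP-sorted against untreated animals 1 of 40 other immediate early genes rose (2.5%) and 21 fell (52.5%), where 21.3% of all genes rose and 21.5% fell, with Spry2 at -1.09 ± 0.13 and Zfp36l1 at -0.93 ± 0.11.

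With IL-17 inhibition 2 of the 39 other immediate early genes rose (5.13%) and 5 fell (12.8%) against no inhibitor, where 3.8% of all genes rose and 4.65% fell, with Trib1 at -0.67 and Sgk1 at -0.49, and 2 of 38 chaperone genes rose (5.26%) and 3 fell (7.89%), with the small chaperone Cryab at 1.12 ± 0.25 (adjusted p = 0.0193). With TNF inhibition none of these immediate early genes passed (Rhob had the lowest adjusted p, 0.0582), and 2 of 38 chaperone genes rose (5.26%), where 2.53% of all genes rose and 3.02% fell. Ddit3 rose in both comparisons, which share the untreated animals, by 0.77 (adjusted p = 0.00868) in TNF-inhibited and 0.57 (adjusted p = 0.0179) in IL-17-inhibited animals. For all these genes of the lists, treatment and library cannot be told apart in the comparisons with untreated animals. Markers of other cell types also moved: keratinocyte markers (7 genes) summed to 33.3 to 109 CPM in unsorted arthritic and 131 to 341 CPM in healthy animals, and leukocyte markers (8 genes) to 18.2 to 90.2 CPM and 4.64 to 6.52 CPM, with Ptprc, the gene of CD45, at 0 to 4 UMIs and 0 UMIs. Their part in the differences between arthritic and healthy animals was not tested.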

How the data were processed

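Single-cell RNA and hashtags were measured in 4 pooled libraries of 17 animals. The deposited matrices hold raw UMI counts, made with Cell Ranger 6.0.0 in 3 and 5.0.0 in 1 matrix, per the file headers. Version 6.0.6 and build mm10 stand in the submitters' processing notes. The authors' deposited annotation gives the animal, the class, a mitochondrial fraction and a stress score per cell, and the sources used here do not say how these were made. Doublet calling was not repeated here, and only annotated cells were used. Identification of a cell's animal was taken from the annotation and checked against the hashtag counts.

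Counts were summed per animal over the 5 fibroblast classes or within 1 class (at least 10 cells) and tested over all genes with edgeR 4.0.16 (R 4.3.3; TMM, low counts removed with filterByExpr, quasi-likelihood test, Benjamini-Hochberg adjustment at 0.05). The 12 unsorted animals shared 1 fit by group, a fit with library as a term compared arthritic with healthy animals, and the FAP-sorted comparison held 8 animals. Responses were compared between classes with animal as a block. CPM values and marker sums use TMM-scaled totals, while CPM in classes and the sums of the 19 immediate early and 12 heat shock genes use plain totals. Fits were also run on simulated counts without differences of library, class mix, sex or cell assignment, so that run cannot bear on these limits.

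The members and lists were chosen with earlier results of these data known. Values per animal are given for the 12 members with the lowest adjusted p over the comparisons and for Fos, Jun, Egr1, Atf3, Hspa1a, Hspa1b, Hspa8, Hspb1 and Hsp90aa1, and for other genes up to 4 per list with the lowest adjusted p. Hashtag numbers did not pair animals. The p-values measure the spread between animals, which is 3 to 5 per group. In the group fits with a library term each healthy animal stood alone in its library, and only the arthritic animals gave the spread. Alternatives were RLE factors, DESeq2 1.42.0, no low-count filter, single classes, other sets of cells or libraries, a replicate block and each animal left out. Hashtag libraries entered only through the annotation and the check of hashtags.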

Additional observations from a re-analysis of the deposited data

Results flagged for a closer look

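The response of arthritic against healthy animals differed between fibroblast classes for 9 gene and class pairs by a test of the difference itself (edgeR, animal as a block, Benjamini-Hochberg over all genes). For lining minus Il6+ fibroblasts, the difference of log2 fold changes was 2.02 for Egr3, 1.26 for Nr4a2, 1.10 for Hsph1 and -1.13 for Egr2. Without each animal in turn, 1 to 4 of the 31 genes passed this test. For Mmp3+ minus Il6+ fibroblasts it was 1.05 for Ier5, 1.01 for Fosb, 1.10 for Bag3, 0.85 for Jund and 0.82 for Hspa8, on 16 to 24 Mmp3+ cells per healthy animal, and 1 to 9 of the 31 genes passed without each animal in turn. IL-17 inhibition and TNF inhibition differed for Ier2 (-0.46) and Egr3 (0.45), and neither gene passed with library as a term (adjusted p = 0.871 for Ier2 and 0.923 for Egr3).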

How the results depend on the processing

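Most values kept their side of the threshold, and the causes of the changes below were not tested. A reversal is listed only where the sign changed and the gene passed in the main fit or in the other fit. Changes of sign where neither fit passed are not listed, among them those of heat shock genes for TNF inhibition with a library term. In single classes of untreated arthritic against healthy animals, lining fibroblasts reversed Egr3 (0.71), Ier2 (0.0053), Klf4 (0.15) and Klf6 (0.14), Mmp3+ fibroblasts Ier2 (0.26), Ier5 (0.89), Junb (0.077), Klf2 (0.43) and Klf6 (0.12), Cd200+ fibroblasts Junb (0.043), and Il6+ and Pi16+ fibroblasts Klf4 (0.015 and 0.031). Within libraries, Mmp3+ fibroblasts reversed Bag3 (1.28), Btg2 (0.54), Egr1 (0.58), Fosb (0.72), Ier2 (0.41), Ier5 (0.84), Jun (0.69), Junb (0.14), Jund (0.68), Klf2 (0.44), Klf6 (0.16) and Zfp36 (0.65). Il6+ fibroblasts reversed Btg2 (0.070), Nr4a2 (-0.60) and Zfp36 (0.037), Cd200+ fibroblasts Btg2 (0.048), Egr1 (0.21), Hsp90aa1 (-0.12) and Hspb1 (-0.33), and Pi16+ fibroblasts Dusp1 (-0.028) and Hsph1 (-0.15). Lining fibroblasts reversed Btg2 (0.040), Egr1 (0.43), Egr3 (0.41), Fos (0.49), Fosb (0.14), Ier2 (0.20), Jun (0.13), Jund (0.40), Klf6 (0.094) and Nr4a1 (0.57), and IL-17 against TNF inhibition for Egr3 (-0.20) and FAP-sorted against untreated animals for Junb (0.11). A library term reversed Hspb1 (-0.039) and Hspe1 (-0.040) with IL-17 inhibition, and the highest raw hashtag of healthy cells reversed Egr1 (0.064) within libraries.

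Counts of genes passed also moved. For untreated against healthy animals (4116 genes, 8 members) they were 790 and 1 in Il6+, 872 and 4 in Mmp3+, 396 and 2 in Cd200+ and 212 and 1 in Pi16+ fibroblasts, 1329 genes in lining fibroblasts, 2317 with a library term, 2259 with only the untreated library's healthy animal, and 2694 and 4 with the highest raw hashtag. For TNF inhibition (797 and 0) they were 29 genes in Il6+ and 99 in Cd200+, 297 and 1 in Mmp3+ and 134 and 1 in lining fibroblasts, 0 with a library term, 1405 and 2 with DESeq2, and 2 members without a low-count filter. For IL-17 inhibition (1212 and 6) they were 256 and 1 in Il6+, 137 and 0 in Cd200+, 50 and 3 in lining and 19 and 3 in Pi16+ fibroblasts, 3 members in Mmp3+ fibroblasts, and 0 and 0 with a library term. For IL-17 against TNF inhibition (1090 and 2) they were 90 and 0 in Il6+, 161 and 0 in Cd200+ and 672 and 6 in lining fibroblasts, 0 members in Mmp3+ fibroblasts, 0 and 0 with a library term, and 5 members each with DESeq2 and without a low-count filter. For FAP-sorted against untreated animals (5751 and 8) they were 2522 genes in Il6+, and 201 and 2 in Cd200+, 565 and 2 in lining and 478 and 1 in Pi16+ fibroblasts. Within libraries (5768 and 21) they were 1471 and 9 in Il6+ (1471 and 10 with RLE), 879 genes in Mmp3+ (745 and 9 with RLE), 664 and 4 in Cd200+ (658 and 4 with RLE), 1888 genes in lining (1880 with RLE) and 128 and 1 in Pi16+ fibroblasts, 3149 genes in the untreated library, 1034 and 2 in the TNF-inhibited and 1729 and 3 in the IL-17-inhibited library, and 3616 genes with the highest raw hashtag. With healthy cells of the highest raw hashtag, genes and members were 1567 and 10 in lining and 90 and 1 in Pi16+ fibroblasts, and without Y-linked healthy cells 1663 and 15 in lining, 1342 and 8 in Il6+, 659 and 3 in Cd200+ and 131 and 1 in Pi16+ fibroblasts. With a library term and either restriction, genes and members were 0 and 0 for TNF inhibition and for IL-17 against TNF inhibition, and 0 to 1 and 0 for IL-17 inhibition. The Mmp3+ minus Il6+ test gave 2 members with RLE.

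Without each animal in turn, genes passed numbered 3125 to 3674 (members 4 to 9) for untreated against healthy animals, 105 to 781 (0 to 1) for TNF inhibition, 326 to 754 (1 to 6) for IL-17 inhibition, 473 to 1092 (0 to 4) for IL-17 against TNF inhibition, 4330 to 6350 (5 to 9) for FAP-sorted animals and 4102 to 6204 (15 to 22) within libraries. For the class tests they were 261 to 704 (1 to 4) for lining, 208 to 373 (1 to 9) for Mmp3+ and 27 to 84 (0 to 1) for Cd200+ minus Il6+ fibroblasts. Hashtag numbers did not pair animals, as same-numbered animals had correlations of -0.174 to 0.164, and a replicate block gave 730, 978, 859 and 4627 genes and 0, 4, 0 and 10 members for TNF inhibition, IL-17 inhibition, IL-17 against TNF inhibition and FAP-sorted animals. A limit of 5% mitochondrial UMIs and the requirement of the highest scaled hashtag changed no count beyond 1.5 times. Depth limits the lining and Mmp3+ values of healthy animals, which rest on 16 to 49 cells each.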
